A study of Saccharomyces cerevisiae with 24 samples.

Results

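The nuclear genes for the respiratory chain and the ATP synthase were followed in 7 aneuploid strains of budding yeast, Saccharomyces cerevisiae, in mRNA and in ribosome-protected footprints (FP). The members are the open reading frames (ORFs) that encode subunits of succinate dehydrogenase, cytochrome bc1, cytochrome c oxidase and the ATP synthase, cytochrome c, and the dehydrogenases that pass electrons to the chain from the outer face of the inner membrane. They number 31 of 6033 nuclear ORFs, namely 10 of the ATP synthase, 6 of cytochrome bc1, 7 of cytochrome c oxidase, 4 of succinate dehydrogenase, cytochrome c (CYC1) and 3 external dehydrogenases. The rule went by function and used no measured value, but it was set with earlier results of these data known.

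Each strain was a haploid of the S288C background with 1 or more whole chromosomes in 2 copies, named D (disome) and the chromosome number. Run 1 held D2 (NVY1), D1/2 (NVY2) and WT, and run 2 held D1/8 (KLY194), D1/2/8 (NVY3), D1/2/8/11 (KLY193), D13 as strain KLY196, D13 as strain KLY195, and WT. D1/8, D1/2/8/11 and D13 (KLY195) had 2 biological replicates each, every other strain had 1 culture in its run, and each of the 12 cultures gave 1 FP and 1 mRNA library. WT (RLY2626) is the euploid haploid, MATa and ura3 his3 trp1 leu2 LYS2, markers that NVY1, NVY2 and NVY3 share. KLY193 is MATa ura3 his3 leu2 LYS2, and KLY194 was derived from NVY3. Both carry a trp cassette that restored CAK1, which is mutated in D1/2/8. KLY196 is MATα ura3 his3 trp1 leu2 LYS2 with missense mutations in CAK1 and SEC24, and KLY195 is MATα ura3 his3 LYS2 with both genes restored by trp and leu cassettes. All cultures grew in rich glucose medium at 25 °C, a condition in which yeast draws most of its ATP from fermentation.

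Respiration moves electrons from succinate, NADH and glycerol 3-phosphate through ubiquinone, cytochrome bc1, cytochrome c and cytochrome c oxidase to oxygen, and the proton gradient this builds drives the ATP synthase. Most subunits are encoded in the nucleus, made on cytosolic ribosomes and imported, while a few core subunits are encoded by mitochondrial DNA. In glucose medium many of the nuclear genes are held down, and the Hap2/3/4/5 complex, which binds CCAAT sequences and whose Hap4 subunit limits its activity, raises their transcription when glucose is gone.

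Because members of several complexes moved together, the CCAAT sequences upstream of them are shown first. Both strands of the 500 bases before each start codon were searched in the R64 assembly. CCAAT was found before 27 of 31 members (87.1%) and before 62.7% of 5618 nuclear ORFs. It stood before 10 of 10 ATP synthase members, 4 of 4 of succinate dehydrogenase, 5 of 6 of cytochrome bc1, 6 of 7 of cytochrome c oxidase and 2 of 3 external dehydrogenases, and these letters were not in the window of CYC1. The longer motif of the heme-responsive factor Hap1 was found before QCR6 alone among the members and before 0.374% of all nuclear ORFs. A match is a description of the letters and not of binding. The windows below stand before the members with the largest FP or mRNA changes in a strain with 2 cultures, up to 10 in each measure, other than CYC1. Each is on the strand of its gene and holds the match nearest to the start codon that lies at least 100 bases before it, in capitals as CCAAT or, on the opposite strand, ATTGG.
ATP2, chrX:647413-647441, plus strand: caggacaggccaATTGGataaattttgca
ATP3, chrII:315368-315396, plus strand: cgtgatggagaaCCAATgagcggcgagta
ATP7, chrXI:408150-408178, minus strand: gtaaaagatacaCCAATtaccacttgctg
QCR6, chrVI:224859-224887, minus strand: cttaagggcagtATTGGttggcgcttatt
QCR7, chrIV:1496713-1496741, minus strand: atcttgttttgaCCAATcaggagcgacgc
QCR8, chrX:106211-106239, plus strand: attttttttaagCCAATgaaaatgaagaa
COX7, chrXIII:779273-779301, minus strand: aggcagtacttgATTGGctacgccgcgca
COX8, chrXII:910150-910178, minus strand: aaacggtttgcaCCAATcatacgagagaa
COX9, chrIV:334527-334555, minus strand: tactgcaacctgATTGGcccgctaccacg
SDH3, chrXI:179508-179536, plus strand: aggtccattctgATTGGctgcggtagccc
SDH4, chrIV:817705-817733, plus strand: ataagcattgagCCAATcgctgctgtttt
NDE1, chrXIII:556561-556589, minus strand: tattctggtaaaCCAATtaaagagagaaa
GUT2, chrIX:53964-53992, minus strand: atcagcgagtgaCCAATaatcactgcact
ATP2, whose FP fell in D1/2/8/11, carried the motif, as did ATP7 and COX8, whose FP rose in the same strain.

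Libraries held between 1660604 and 5075570 FP reads and between 1532162 and 3477630 mRNA reads in run 1, as recovered from the lowest steps of the deposited values, and in run 2 between 8479216 and 24934493 FP reads and between 22379548 and 39607150 mRNA reads. Every member but NDE2 had at least 34.2 FP reads and 11.0 mRNA reads in each library. Medians of the duplicated chromosomes lay between 0.78 and 1.10 above WT in FP and between 0.60 and 1.04 in mRNA on the log2 scale, so each karyotype matched its label. KLY195 and KLY196 share a karyotype, so these medians cannot tell their libraries apart. The library labelled D13 (KLY195) replicate 1 had 0.759 RPKM of TRP1 footprints although its strain carries a trp cassette, against 104.6 RPKM in replicate 2, while their mRNA libraries held 303 and 300.7 RPKM. LEU2 FP was 66.5 and 321 RPKM in the same order. The FP library of D13 (KLY196), which has neither cassette, held 2.947 RPKM of TRP1 and 59.1 RPKM of LEU2, and WT of run 2 held 0 and 52.87 RPKM. Density in replicate 1 pairs its FP library with the mRNA library of the same label, and whether they belong together was not tested. The libraries labelled D1/8 had at most 0.259 RPKM of TRP1, though a trp cassette is described for this strain. The FP and density counts for D13 (KLY195) are therefore also given without replicate 1, values of single members come from both cultures unless said otherwise, and names follow the labels. Cultures of a strain differed more in FP (SD of the log2 ratio 0.19 in D1/8, 0.58 in D13 (KLY195) and 0.35 in D1/2/8/11) than in mRNA (0.14 to 0.15).

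In footprints, members of the ATP synthase, cytochrome bc1 and cytochrome c oxidase were mostly above WT in 4 of the 5 aneuploid strains of run 2, while ATP2 was far below WT in the same 4 strains. In D1/2/8/11, 16 of 26 members on nonduplicated chromosomes rose and 2 fell (limma, Benjamini-Hochberg adjusted p under 0.05 over all genes), where 14.6% of all such genes rose and 21.8% fell. In D13 (KLY195), 16 of 28 rose and 2 fell, where 6.53% of all genes rose and 18.2% fell. In D13, 14 of 28 rose and 1 fell (5.17% and 16.0% of all genes), and in D1/2/8, 7 of 29 rose and 2 fell (4.47% and 15.9%). In D1/8 no member of 30 passed in either direction (0.381% and 0.317% of all genes), with 4 above and 1 below WT at an unadjusted p under 0.05. All strains share 1 spread in the fit, and some members passed in D1/8, all above WT, when either D13 (KLY195) culture was left out. The absence of calls in D1/8 thus depends on the cultures of another strain. The median log2 change of members on nonduplicated chromosomes was 0.53 in D1/2/8/11, 0.66 in D13 (KLY195), 0.59 in D13, 0.39 in D1/2/8 and 0.15 in D1/8, beside medians of 0.00 to 0.02 over all genes. NDE2 was too low to test in FP (0 to 1.35 RPKM). These are bulk cultures, so a change in every cell and a change in a fraction of cells cannot be told apart, and RPKM carries no measure of the total mRNA per cell.

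The 5 comparisons share 1 WT library per fraction, which was assumed to vary like the strains with 2 cultures. The 19 and 17 FP rises named next count duplicated chromosomes. ATP3, ATP7 and SDH3 are in 2 copies in D1/2/8/11, as is COX7 in D13 (KLY195). QCR6, in 1 copy in these strains, changed by 0.17 in D1/2/8/11 with the WT of both runs as 1 group. Only 3 of the 19 FP rises in D1/2/8/11 (ATP3, ATP7 and QCR6) and 11 of the 17 in D13 (KLY195) held in each of the 6 fits that left out 1 culture, and the fall of ATP2 held in all 6 in both strains. Without replicate 1 of D13 (KLY195), 21 of 28 members on nonduplicated chromosomes rose and 2 fell in that strain (median 0.65), where 18.9% of all genes rose and 23.0% fell. These were 6 rises and 1 fall of 10 in the ATP synthase, 6 of 6 rises in cytochrome bc1, 6 of 6 in cytochrome c oxidase, 2 rises and 1 fall of 4 in succinate dehydrogenase, and CYC1. With COX7, whose gene is in 2 copies there, they include all 17 rises and both falls found with both cultures. The members that passed only without it were CYC1 (1.07 ± 0.11, adjusted p = 0.00094), COX8 (0.75 ± 0.21, adjusted p = 0.032), ATP20 (0.62 ± 0.18, adjusted p = 0.033), CYT1 (0.56 ± 0.11, adjusted p = 0.01) and SDH2 (0.39 ± 0.11, adjusted p = 0.034), while COX9 went to 0.67 ± 0.12 (adjusted p = 0.0077). Libraries were also aligned on genes whose product has no predicted hydrophobic segment, a choice made after seeing the data. Of 30 members tested, duplicated chromosomes counted, 9 then rose and 3 fell in D1/2/8/11, and 12 rose and 2 fell in D13 (KLY195). The 9 include ATP3, ATP7 and SDH3, and the 12 include COX7, each in 2 copies in the strain concerned. No share of all genes is given for this alignment.

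**Figure D1:**
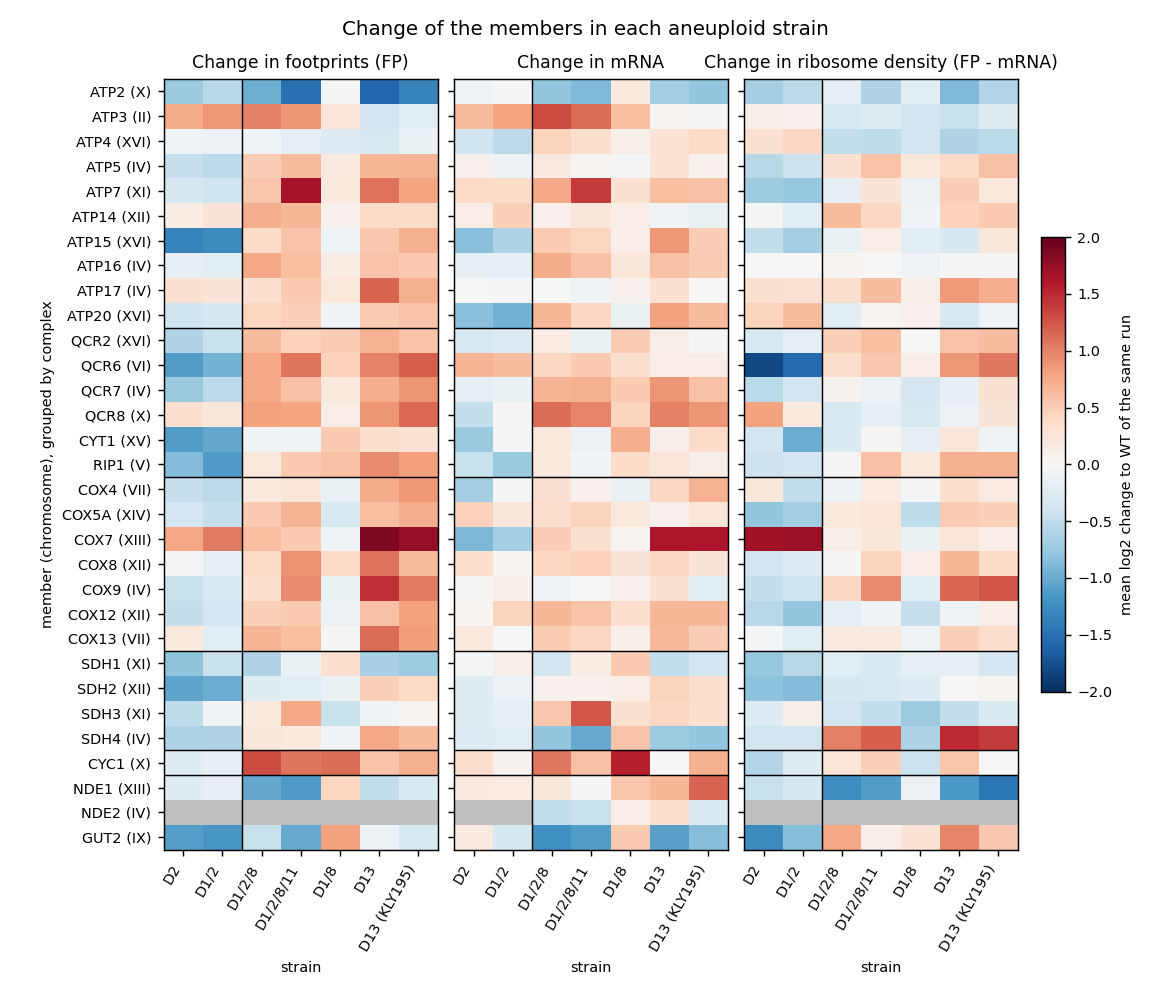
Heat maps of the log2 change of each member from the WT of its run, for FP, mRNA and density (FP minus mRNA), with strains as columns and members as rows by complex; strains with 2 cultures show their mean, and grey marks values under the filter on low values. Run 1 strains D2 and D1/2 are mostly below 0 in FP, D1/2/8/11 and both D13 strains are mostly above 0, and ATP2 is below 0 in every strain but near 0 in D1/8 (-0.02).

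The ATP synthase had 10 members, of which 4 rose and 1 fell in FP among the 8 on nonduplicated chromosomes in D1/2/8/11 (median 0.55), and 5 rose and 1 fell among 10 in D13 (KLY195) (median 0.55). ATP2 (YJR121W, chrX:647607-649142), the catalytic beta subunit, was the member of its complex that fell in FP. It had 182 and 168 RPKM of footprints in the D1/2/8/11 cultures, 197 and 190 RPKM in D13 (KLY195), 245 RPKM in D1/2/8, 163 RPKM in D13 and 505 and 464 RPKM in D1/8, against 490.1 RPKM in WT. Only the D1/8 cultures came near the WT level, and every other aneuploid library of run 2 lay below all 3 of these. The log2 change was -1.49 ± 0.14 in D1/2/8/11 (SE, adjusted p = 0.00073), -1.34 ± 0.14 in D13 (KLY195) (adjusted p = 0.0012), -1.58 ± 0.16 in D13 (adjusted p = 0.0019) and -0.98 ± 0.16 in D1/2/8 (adjusted p = 0.0078), but -0.02 ± 0.14 in D1/8 (adjusted p = 0.96). ATP2 mRNA was lower by less, at 278 and 292 RPKM in D1/2/8/11, 310 and 314 RPKM in D13 (KLY195), 303 RPKM in D1/2/8, 325 RPKM in D13 and 608 and 598 RPKM in D1/8, against 526 RPKM in WT. These mRNA levels gave log2 changes of -0.88 ± 0.06 in D1/2/8/11 (adjusted p = 4.8e-08) and -0.77 ± 0.06 in D13 (KLY195) (adjusted p = 2.3e-07), and 0.20 ± 0.06 in D1/8 (adjusted p = 0.022). In D1/8 the mRNA call was lost without replicate 1 (adjusted p = 0.054). ATP1, the alpha subunit that alternates with ATP2 in the catalytic head, is not among the members. ATP1 FP was 388 and 374.5 RPKM in D1/2/8/11, which carries its chromosome II in 2 copies, and 280.3 and 268 RPKM in D13 (KLY195), against 394 RPKM in WT. It did not rise with the extra copy (-0.05 ± 0.13, adjusted p = 0.78), and fell in D13 (KLY195) (-0.52 ± 0.13, adjusted p = 0.03).

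ATP3, the gamma subunit of the rotor stalk, lies on chromosome II (YBR039W, chrII:315575-316510) and followed that chromosome's copy number. Its FP was 452 and 388 RPKM in D1/2/8/11 and 449 RPKM in D1/2/8, which carry it in 2 copies, 212 and 181 RPKM in D13 (KLY195), 173 RPKM in D13 and 259 and 274.6 RPKM in D1/8, against 226 RPKM in WT. The 3 libraries with the extra copy were above all others. ATP3 FP rose by 0.88 ± 0.17 in D1/2/8/11 (adjusted p = 0.0081) and 1.01 ± 0.20 in D1/2/8 (adjusted p = 0.014), and its mRNA by 1.12 ± 0.08 (adjusted p = 4.3e-08) and 1.31 ± 0.09 (adjusted p = 8.8e-08) in the same strains. ATP3 mRNA also rose in D1/8, by 0.60 ± 0.08 (adjusted p = 5.4e-05), where chromosome II is single.

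ATP7, subunit d of the peripheral stalk, is on chromosome XI (YKL016C, chrXI:407465-407989), in 2 copies in D1/2/8/11 alone. ATP7 FP was 563 and 634 RPKM in D1/2/8/11, 311 and 350.1 RPKM in D13 (KLY195), 277 RPKM in D1/2/8, 403 RPKM in D13 and 213 and 223 RPKM in D1/8, against 190.2 RPKM in WT. All aneuploid libraries were above WT and the D1/2/8/11 cultures were the highest. The rise was 1.65 ± 0.15 in D1/2/8/11 (adjusted p = 0.0007), 0.79 ± 0.15 in D13 (KLY195) (adjusted p = 0.0091) and 1.09 ± 0.17 in D13 (adjusted p = 0.0062), the last pair with 1 copy of the gene. In mRNA, ATP7 was 447 and 425 RPKM in D1/2/8/11 against 165 RPKM in WT, a rise of 1.40 ± 0.07 (adjusted p = 2.8e-09).

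Other stalk subunits rose by less in FP. ATP16, the delta subunit of the rotor, rose in D1/2/8/11 (0.60 ± 0.13, adjusted p = 0.012), D13 (KLY195) (0.52 ± 0.13, adjusted p = 0.028), D13 (0.57 ± 0.15, adjusted p = 0.04) and D1/2/8 (0.78 ± 0.15, adjusted p = 0.013). ATP5, which joins the catalytic head to the peripheral stalk, had 292 and 273 RPKM of FP in D1/2/8/11 and 295 and 291 RPKM in D13 (KLY195), against 182 RPKM in WT, and rose by 0.63 ± 0.13 (adjusted p = 0.01) and 0.68 ± 0.13 (adjusted p = 0.0096). ATP17, a membrane-sector subunit, had 329 and 379.6 RPKM of FP in D1/2/8/11 and 424 and 379 RPKM in D13 (KLY195), against 244 RPKM in WT. It rose by 0.53 ± 0.16 (adjusted p = 0.039) and 0.71 ± 0.16 (adjusted p = 0.019), although its mRNA stayed within 0.08 of WT on the log2 scale in both strains. ATP14, of the peripheral stalk, rose in D1/2/8/11 (0.66 ± 0.17, adjusted p = 0.024) and ATP15, the epsilon subunit of the rotor, in D13 (KLY195) (0.71 ± 0.20, adjusted p = 0.04). ATP20, which helps hold synthase dimers together, and ATP4, subunit b of the peripheral stalk, passed in FP in none of the 5 strains, with changes of 0.47 ± 0.17 and -0.18 ± 0.17 in D1/2/8/11.

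Of the 6 cytochrome bc1 members, 5 rose and none fell in FP in D1/2/8/11 (median 0.56) and in D13 (KLY195) (median 0.85), 4 in D13 (median 0.81) and 3 in D1/2/8 (median 0.69). QCR6 (YFR033C, chrVI:224326-224769), an acidic subunit near the cytochrome c docking side, had 149 and 150 RPKM of FP in D1/2/8/11, 151 and 176 RPKM in D13 (KLY195), 119 RPKM in D1/2/8, 141 RPKM in D13 and 102 and 93.3 RPKM in D1/8, against 70.8 RPKM in WT. Every aneuploid library of run 2 was above its WT. QCR6 FP rose by 1.07 ± 0.15 in D1/2/8/11 (adjusted p = 0.0022) and by 1.20 ± 0.15 in D13 (KLY195) (adjusted p = 0.0019). QCR6 also had the largest gap of all members between the WT libraries, whose FP differed by -1.79 on the log2 scale (run 2 minus run 1). With the WT libraries of both runs as 1 group the changes were 0.17 (adjusted p = 0.8) and 0.30 (adjusted p = 0.69), so both calls rest on the WT of run 2.

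QCR8 (YJL166W, chrX:106434-106718), a small subunit at the ubiquinone site, had 534 and 371 RPKM of FP in D13 (KLY195), 393 and 310 RPKM in D1/2/8/11, 349 RPKM in D1/2/8, 371 RPKM in D13 and 217 and 226 RPKM in D1/8, against 201 RPKM in WT. The D1/8 cultures stood next to WT and the others higher. QCR8 FP rose by 1.14 ± 0.26 in D13 (KLY195) (adjusted p = 0.019) and 0.79 ± 0.26 in D1/2/8/11 (adjusted p = 0.048), the second of which was lost without either D1/2/8/11 or either D1/8 culture (adjusted p between 0.069 and 0.19). Its mRNA was 206 and 222 RPKM in D1/2/8/11 and 203 and 204 RPKM in D13 (KLY195), against 109 RPKM in WT, and rose by 0.98 ± 0.07 (adjusted p = 5.3e-08) and 0.89 ± 0.07 (adjusted p = 1.6e-07).

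QCR7, the partner of QCR8 near the same site, had 370.4 and 313 RPKM of FP in D13 (KLY195) and 278 and 281 RPKM in D1/2/8/11, against 184 RPKM in WT, with rises of 0.88 ± 0.16 (adjusted p = 0.0079) and 0.59 ± 0.16 (adjusted p = 0.026). The QCR7 call in D1/2/8/11 was lost without any 1 of the D1/2/8/11 and D1/8 cultures. QCR2, a core protein on the matrix side, rose in D1/2/8/11 (0.46 ± 0.15, adjusted p = 0.046), D13 (KLY195) (0.57 ± 0.15, adjusted p = 0.031), D13 (0.69 ± 0.17, adjusted p = 0.031) and D1/2/8 (0.63 ± 0.17, adjusted p = 0.041). RIP1, the Rieske iron-sulfur protein, rose in D1/2/8/11 (0.52 ± 0.15, adjusted p = 0.031), D13 (KLY195) (0.82 ± 0.15, adjusted p = 0.0077) and D13 (0.95 ± 0.17, adjusted p = 0.0096). CYT1, which encodes cytochrome c1 and is the only member of over 300 residues here besides QCR2, stayed between -0.09 and 0.53 in these 5 strains without passing.

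Of the cytochrome c oxidase members, 6 of 7 rose in FP in D1/2/8/11 (median 0.60) and, on nonduplicated chromosomes, 5 of 6 in D13 (KLY195) (median 0.82) and 5 of 6 in D13 (median 0.91), but 1 of 7 in D1/2/8 (median 0.48) and none in D1/8 (median -0.11). COX7 (YMR256C, chrXIII:778945-779127), a small membrane-spanning subunit, is in 2 copies in both D13 strains. Its FP was 627 and 700.2 RPKM in D13 (KLY195), 712 RPKM in D13, 271 and 297 RPKM in D1/2/8/11, 294 RPKM in D1/2/8 and 176 and 196 RPKM in D1/8, against 197 RPKM in WT. The disome 13 libraries were above every other library. COX7 FP rose by 1.75 ± 0.15 in D13 (KLY195) (adjusted p = 0.00094) and 1.86 ± 0.17 in D13 (adjusted p = 0.0018), and its mRNA by 1.61 ± 0.07 (adjusted p = 5.3e-10) and 1.62 ± 0.08 (adjusted p = 3.8e-09), all above the value of 1 that a second copy alone would give. COX7 mRNA was 369 and 361 RPKM in D13 (KLY195), 365 RPKM in D13, 141 and 149 RPKM in D1/2/8/11, 164 RPKM in D1/2/8 and 122 and 123 RPKM in D1/8, against 118 RPKM in WT. In D1/2/8/11, with 1 copy, COX7 FP rose by 0.52 ± 0.15 (adjusted p = 0.033), a call lost without any 1 of the D1/2/8/11 and D1/8 cultures.

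COX9 (YDL067C, chrIV:334217-334396), the shortest member at 59 residues, had 983 and 597 RPKM of FP in D13 (KLY195), 727 and 724 RPKM in D1/2/8/11, 468 RPKM in D1/2/8, 1027 RPKM in D13 and 322 and 368 RPKM in D1/8, against 375 RPKM in WT. Both D1/8 cultures were under WT and all other aneuploid libraries were over it. The changes were 1.03 ± 0.29 in D13 (KLY195) (adjusted p = 0.044) and 0.95 ± 0.29 in D1/2/8/11 (adjusted p = 0.041), and each lost its call under 5 of the other settings and without any 1 of the D1/2/8/11 and D1/8 cultures. COX9 mRNA stood at 0.00 ± 0.06 from WT in D1/2/8/11 (adjusted p = 0.98) and fell in D13 (KLY195) (-0.23 ± 0.06, adjusted p = 0.0072). COX8, another small membrane subunit, had 491 and 671 RPKM of FP in D1/2/8/11, 446 and 517 RPKM in D13 (KLY195), 396 RPKM in D1/2/8, 645 RPKM in D13 and 383 and 423 RPKM in D1/8, against 307 RPKM in WT. COX8 lay above WT in each of these libraries and rose in D1/2/8/11 by 0.90 ± 0.21 (adjusted p = 0.018), a call lost without replicate 2 of that strain (adjusted p = 0.064).

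COX12 and COX13, peripheral subunits, rose by 0.80 ± 0.15 (adjusted p = 0.01) and 0.84 ± 0.16 (adjusted p = 0.01) in D13 (KLY195) and by 0.52 ± 0.15 (adjusted p = 0.036) and 0.60 ± 0.16 (adjusted p = 0.027) in D1/2/8/11. COX5A, the form of subunit 5 used when oxygen is present, rose by 0.72 ± 0.14 (adjusted p = 0.0097) in D13 (KLY195) and 0.68 ± 0.14 (adjusted p = 0.0092) in D1/2/8/11. COX4, a subunit on the matrix side, rose in D13 (KLY195) (0.87 ± 0.15, adjusted p = 0.0065) and D13 (0.74 ± 0.17, adjusted p = 0.025), and was 0.24 ± 0.15 above WT in D1/2/8/11 (adjusted p = 0.24).

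Succinate dehydrogenase, which joins the citric acid cycle to the chain, did not move as 1 group, and its members on nonduplicated chromosomes had FP medians between -0.09 and 0.22 in the 5 strains. The flavoprotein SDH1 and the membrane anchor SDH3 lie on chromosome XI, 2 copies of which are present in D1/2/8/11. SDH3 (YKL141W, chrXI:179667-180263) had 319 and 273 RPKM of FP in D1/2/8/11, 195 and 165 RPKM in D13 (KLY195), 195 RPKM in D1/2/8, 166 RPKM in D13 and 125 and 132 RPKM in D1/8, against 174 RPKM in WT. The D1/2/8/11 cultures were the highest, with a rise of 0.76 ± 0.17 (adjusted p = 0.015) in FP and 1.24 ± 0.07 (adjusted p = 3.4e-09) in mRNA, where SDH3 had 223 and 220.4 RPKM against 93.3 RPKM in WT. SDH1 (YKL148C, chrXI:169207-171129), with the same extra copy, had 25.0 and 29.2 RPKM of FP in D1/2/8/11, 15.4 and 20.5 RPKM in D13 (KLY195), 19.1 RPKM in D1/2/8, 18.6 RPKM in D13 and 37.7 and 37.1 RPKM in D1/8, against 29.7 RPKM in WT. In FP, SDH1 thus did not exceed WT in the strain with its second copy (-0.14 ± 0.20, adjusted p = 0.6), where its mRNA was 0.15 ± 0.08 above WT (adjusted p = 0.1). SDH1 FP fell by 0.73 in D13 (KLY195) (SE 0.20, adjusted p = 0.037).

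SDH4 (YDR178W, chrIV:817950-818495), the partner anchor of SDH3, fell in mRNA and rose in FP in D13 (KLY195), while in D1/2/8/11 its mRNA fell and its FP did not pass. Its mRNA was 11.98 and 12.9 RPKM in D1/2/8/11, 14.7 and 15.1 RPKM in D13 (KLY195), 14.6 RPKM in D1/2/8, 15.5 RPKM in D13 and 36.2 and 40.3 RPKM in D1/8, against 25.6 RPKM in WT. The D1/8 cultures were above WT and all others below it. SDH4 mRNA fell by 1.01 in D1/2/8/11 (SE 0.10, adjusted p = 1.2e-06) and by 0.78 in D13 (KLY195) (SE 0.10, adjusted p = 1.5e-05). SDH4 FP was 126 and 148 RPKM in D1/2/8/11, 201 and 170 RPKM in D13 (KLY195), 139 RPKM in D1/2/8, 205 RPKM in D13 and 111 and 121 RPKM in D1/8, against 119.8 RPKM in WT, and rose in D13 (KLY195) by 0.62 ± 0.17 (adjusted p = 0.037). This FP call did not hold in every fit that left out 1 culture. It was also lost with libraries aligned on genes without a hydrophobic segment. SDH4 mRNA rose in D1/8 by 0.57 ± 0.10 (adjusted p = 0.00056). That value was 0.0 with the WT of both runs as 1 group, since the WT of run 1 held 63.8 RPKM of SDH4 mRNA. SDH2, the iron-sulfur subunit, passed in FP in none of the 5 strains (-0.24 to 0.47).

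CYC1 (YJR048W, chrX:526335-526664), the main cytochrome c, had 203 and 198 RPKM of FP in D1/2/8/11, 121 and 201 RPKM in D13 (KLY195), 232 RPKM in D1/2/8, 141 RPKM in D13 and 198 and 217 RPKM in D1/8, against 95.0 RPKM in WT. All aneuploid libraries of run 2 lay above WT. The FP rise was 1.07 ± 0.28 in D1/2/8/11 (adjusted p = 0.025) and 1.30 ± 0.33 in D1/2/8 (adjusted p = 0.034), and the first was lost without either D1/2/8/11 culture (adjusted p = 0.1 and 0.091). CYC1 mRNA was highest in D1/8, at 171 and 179 RPKM, with 86.1 and 93.1 RPKM in D1/2/8/11, 102 and 95.2 RPKM in D13 (KLY195), 123 RPKM in D1/2/8 and 60.2 RPKM in D13, against 59.5 RPKM in WT. It rose in D1/8 by 1.55 ± 0.08 (adjusted p = 1.1e-08), the largest mRNA rise of any member in that strain. CYC1 shares 2.6% of its 28-base words with its paralog CYC7, so few reads could be assigned to either gene.

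NDE1 (YMR145C, chrXIII:554793-556475), the main external NADH dehydrogenase, had FP of 77.2 and 89.9 RPKM in D1/2/8/11, 123 and 182 RPKM in D13 (KLY195), 88.9 RPKM in D1/2/8, 130 RPKM in D13 and 261 and 233 RPKM in D1/8, against 183 RPKM in WT. The D1/8 cultures were above WT and D13 (KLY195) replicate 2 was level with it. All others were below WT, including D13 and D13 (KLY195) replicate 1, with 2 copies of the gene. NDE1 FP fell in D1/2/8/11 (-1.13 ± 0.25, adjusted p = 0.012), a call lost without replicate 1 (adjusted p = 0.067), and in D1/2/8 (-1.02 ± 0.28, adjusted p = 0.045). Its mRNA was 218 and 222 RPKM in D1/2/8/11, 506 and 497 RPKM in D13 (KLY195), 256 RPKM in D1/2/8, 355 RPKM in D13 and 322 and 331 RPKM in D1/8, against 223 RPKM in WT. NDE1 mRNA therefore rose with the extra chromosome in D13 (KLY195), by 1.16 ± 0.06 (adjusted p = 4.4e-09), while its FP there was -0.29 ± 0.25 (adjusted p = 0.42). Without replicate 1 of that strain the FP change was -0.01.

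GUT2 (YIL155C, chrIX:51759-53708), the mitochondrial glycerol 3-phosphate dehydrogenase, had mRNA of 15.5 and 12.4 RPKM in D1/2/8/11, 17.1 and 16.7 RPKM in D13 (KLY195), 12.7 RPKM in D1/2/8, 14.2 RPKM in D13 and 44.0 and 44.97 RPKM in D1/8, against 30.6 RPKM in WT. As with SDH4, only the D1/8 cultures were above WT. GUT2 mRNA fell by 1.11 in D1/2/8/11 (SE 0.11, adjusted p = 1.7e-06) and by 0.85 in D13 (KLY195) (SE 0.11, adjusted p = 2.3e-05), and the second was lost with the WT of both runs as 1 group (adjusted p = 0.089). GUT2 FP was -1.01 ± 0.36 in D1/2/8/11 and did not pass (adjusted p = 0.066). NDE2, a second external NADH dehydrogenase, had between 0 and 3.30 RPKM of mRNA and passed in no strain.

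**Figure D2:**
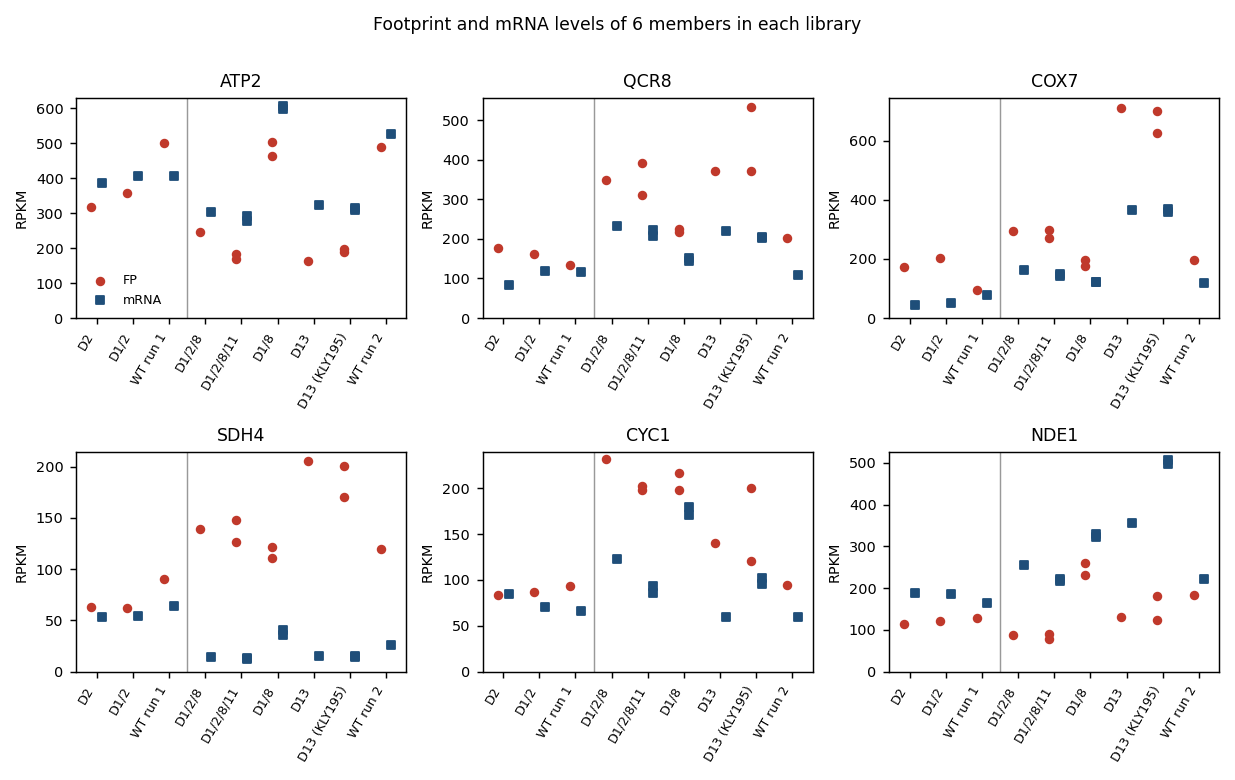
RPKM on a linear axis from 0 of 6 members, one from each group, in every library, with FP as circles and mRNA as squares, and each aneuploid strain left of the WT of its run. ATP2 FP in run 2 lies between 163 and 245 in every strain but D1/8 (464 to 505), whose level is near the WT level of 490.1, COX7 is highest in both D13 strains, and SDH4 mRNA in run 2 is above WT in D1/8 alone.

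In mRNA, where cultures differed least, members rose more often than they fell, but so many genes passed that the shares stood closer to the background. In D1/2/8/11, 14 of 27 members on nonduplicated chromosomes rose and 3 fell (34.0% and 34.1% of all such genes), and in D13 (KLY195), 16 of 29 rose and 5 fell (33.1% and 35.4%). In D13, 17 of 29 rose and 4 fell (31.3% and 32.7%), in D1/2/8, 18 of 30 rose and 4 fell (32.8% and 32.2%), and in D1/8, 19 of 31 rose and none fell (21.5% and 19.9%). The mRNA medians of the members were close together, at 0.23, 0.26, 0.31, 0.32 and 0.25 in the same order. D1/8 was the strain in which all 6 cytochrome bc1 members rose in mRNA, 3 of 4 of succinate dehydrogenase, and both GUT2 and NDE1, while cytochrome c oxidase had 3 of 7. All 20 mRNA calls in D1/2/8/11, with those on duplicated chromosomes, held in each of the 6 fits that left out 1 culture.

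Density, the log2 FP minus log2 mRNA of a culture, passed for few members with all cultures in the fit. All strains share 1 spread. More members passed in D1/2/8/11, against WT and against D1/8, when either D13 (KLY195) culture was left out. In D13 (KLY195), 6 of 28 members on nonduplicated chromosomes rose and none fell (7.61% and 13.7% of all genes), in D1/2/8/11, 1 of 26 rose and 2 fell (5.68% and 15.4%), and in D13, none rose and ATP2 fell among 28 (3.73% and 8.53%). In D1/2/8 none of 29 passed (1.76% and 5.46%), with 2 above and 1 below WT at an unadjusted p under 0.05, and in D1/8 none of 30 passed (0% and 0%), with none above and 2 below at that level. Without replicate 1 of D13 (KLY195), 8 of 28 rose and 1 fell in that strain (16.3% and 19.4% of all genes), and RIP1, COX5A and ATP2 passed only in that fit. No density call held in all 6 fits that left out 1 culture, since the 3 calls in D1/2/8/11 went to 0 and the 7 in D13 (KLY195) to 0 or 1 without a D1/8 culture.

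The members whose density rose in D13 (KLY195) came from several complexes. They were SDH4 (1.40 ± 0.38, adjusted p = 0.047), COX9 (1.25 ± 0.30, adjusted p = 0.036), QCR6 (1.06 ± 0.19, adjusted p = 0.016), ATP17 (0.72 ± 0.19, adjusted p = 0.044), QCR2 (0.61 ± 0.17, adjusted p = 0.049) and ATP5 (0.59 ± 0.15, adjusted p = 0.042). With the WT of both runs as 1 group, 1 member rose and 2 fell there. NDE1 density fell in D13 (KLY195) (-1.45 ± 0.27, adjusted p = 0.017) and in D1/2/8/11 (-1.11 ± 0.27, adjusted p = 0.035). ATP2 density fell in D1/2/8/11 (-0.60 ± 0.16, adjusted p = 0.046) and in D13 (-0.88 ± 0.19, adjusted p = 0.037). When each library was centred on its own median instead, a choice made after seeing the data, 7 members rose and none fell in density in D1/2/8/11. That centring raises the density of every gene in D1/2/8/11 (ATP2 went from -0.60 to -0.4). No share of all genes is given for it, so the 7 rises are not a result about the members. COX7, the member with the largest FP rise, had a density change of 0.14 ± 0.18 in D13 (KLY195) (adjusted p = 0.62), as its mRNA rose with its FP.

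**Figure D3:**
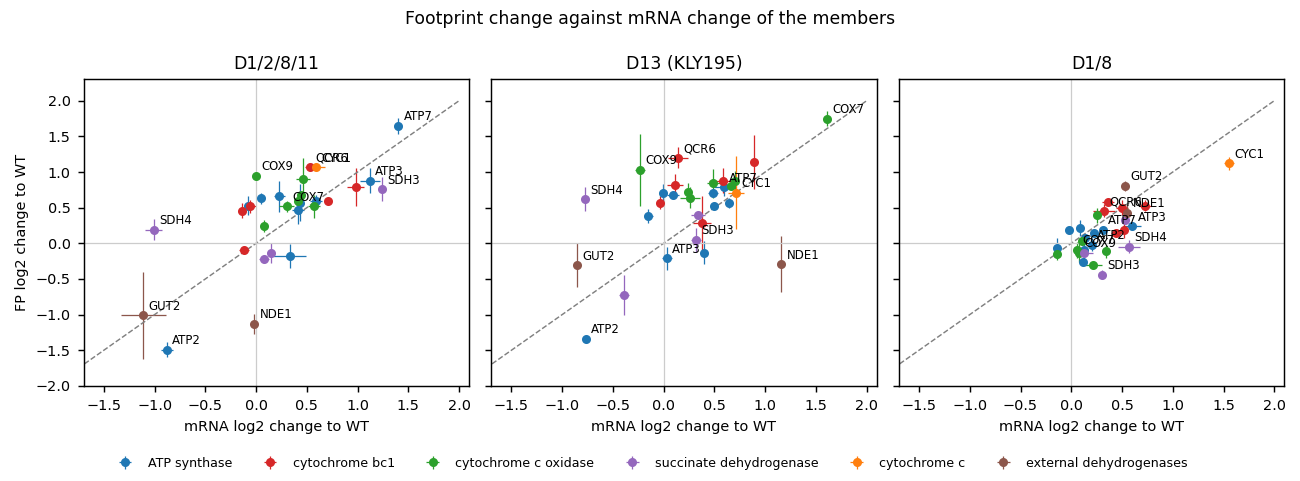
FP log2 change against mRNA log2 change from WT for each member in D1/2/8/11, D13 (KLY195) and D1/8, coloured by complex, with bars for the SD of 2 cultures and a dashed line of equal change. COX7 lies near the line in D13 (KLY195) (FP 1.75, mRNA 1.61), NDE1 lies below it (FP -0.29, mRNA 1.16) and SDH4 above it (FP 0.62, mRNA -0.78).

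The 3 strains with 2 cultures were also set against each other, contrasts that hold no WT value, although each library's shift was still set by its median change from WT. D1/2/8/11 minus D1/8 gave FP rises for 14 of 26 members on nonduplicated chromosomes and falls for 4 (ATP2, CYT1, GUT2 and NDE1), where 18.1% of all genes rose and 23.4% fell. D13 (KLY195) minus D1/8 gave 17 of 28 rises and 4 falls (ATP2, ATP3, GUT2 and SDH1), beside 14.1% and 22.5% of all genes. Between D13 (KLY195) and D1/2/8/11, only COX4 and SDH2 of 24 were higher in D13 (KLY195) and none lower, beside 9.14% and 8.57%. Of all 17 members that were higher than D1/8 in D1/2/8/11, duplicated chromosomes counted, 3 held in each of the 6 fits that left out 1 culture (ATP7, COX5A and SDH3), as did 3 of the 4 lower ones (ATP2, GUT2 and NDE1). For D13 (KLY195) minus D1/8, 6 of the 18 higher (COX12, COX13, COX4, COX5A, COX7 and QCR6) and 2 of the 5 lower (ATP2 and SDH1) held. Without a D1/8 culture the 21 and 23 calls of these contrasts went as low as 7 and 8. Relative to D1/8, ATP2 FP was -1.47 ± 0.11 in D1/2/8/11 (adjusted p = 0.00025) and -1.32 ± 0.11 in D13 (KLY195) (adjusted p = 0.00033). ATP7 and SDH3 lie on chromosome XI, which D1/2/8/11 carries in 2 copies, while COX5A lies on a chromosome duplicated in no strain. COX5A FP was 0.98 ± 0.11 (adjusted p = 0.00088) and 1.01 ± 0.11 (adjusted p = 0.00076) higher than in D1/8 in D1/2/8/11 and D13 (KLY195). GUT2 FP was lower in D1/2/8/11 than in D1/8 (-1.82 ± 0.30, adjusted p = 0.0035). Without replicate 1 of D13 (KLY195), 17 of 28 members were higher and 3 lower in that strain than in D1/8 (20.9% and 23.6% of all genes), and 4 of 24 higher and none lower than in D1/2/8/11 (12.6% and 10.4%).

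In mRNA these contrasts ran in both directions. Against D1/8, D1/2/8/11 had 13 of 27 members higher and 10 lower (37.2% and 36.6% of all genes), and D13 (KLY195) had 10 of 29 higher and 12 lower (37.1% and 37.4%). D13 (KLY195) minus D1/2/8/11 gave 7 of 25 higher and 5 lower (20.7% and 29.6%). SDH4 mRNA was -1.58 ± 0.08 (adjusted p = 1.7e-09) in D1/2/8/11 and -1.35 ± 0.08 (adjusted p = 6.5e-09) in D13 (KLY195) from D1/8, and CYC1 mRNA was -0.97 ± 0.06 (adjusted p = 1.6e-08) and -0.84 ± 0.06 (adjusted p = 5.3e-08). Density was higher for 4 of 26 members and lower for 1 in D1/2/8/11 than in D1/8 (10.8% and 19.2%), higher for 9 of 28 and lower for none in D13 (KLY195) than in D1/8 (13.3% and 19.2%), and passed for none of 24 between D13 (KLY195) and D1/2/8/11 (0% and 0%), with 3 above and none below at an unadjusted p under 0.05. SDH4 density stood 1.82 ± 0.31 (adjusted p = 0.0092) and 2.02 ± 0.31 (adjusted p = 0.0062) above D1/8 in D1/2/8/11 and D13 (KLY195). None of these density calls held in each of the 6 fits that left out 1 culture, and without either D1/8 culture none of the members passed in these 2 contrasts.

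In run 1, with 1 culture per strain and no test, most members lay below WT in FP. Among 29 on nonduplicated chromosomes, 24 were below WT in D2 and 25 in D1/2, with medians of -0.46 and -0.40. At least 1.5-fold lower were 11 in D2 and 7 in D1/2, and 1 was that much higher in each, where 14.9% and 15.8% of all genes were lower and 8.80% and 9.03% higher. ATP15 FP was 197 RPKM in D2 and 203 RPKM in D1/2, against 469.8 RPKM in WT, the largest drop among members (-1.34 and -1.27). QCR6, which rose in run 2, had 97.2 RPKM of FP in D2 and 108 RPKM in D1/2, against 199 RPKM in WT. ATP2 FP was 318 RPKM in D2 and 357 RPKM in D1/2, against 501 RPKM in WT, and so lay under WT here too. COX7 was the member at least 1.5-fold above WT, with 172 RPKM of FP in D2 and 202 RPKM in D1/2, against 94.3 RPKM in WT, although its mRNA was 42.9 and 50.1 RPKM against 79.7 RPKM. Besides NDE2, COX7 had the fewest reads of all members, with 34.2 in FP and 11.0 in mRNA in its lowest libraries. Its WT libraries differed by 0.75 in FP and 0.73 in mRNA on the log2 scale (run 2 minus run 1). ATP3, in 2 copies in both strains, had 283 RPKM of FP in D2 and 303 RPKM in D1/2, against 159 RPKM in WT. In mRNA, 5 members in D2 and 4 in D1/2 were at least 1.5-fold lower and 1 in each higher (12.2%, 12.7%, 8.60% and 8.80% of all genes in the order lower in D2, lower in D1/2, higher in D2, higher in D1/2). Strain, run and the WT library used cannot be told apart here: of the members, 4 of 30 in FP and 5 of 31 in mRNA differed at least 1.5-fold between the WT libraries, as did 19.8% and 19.3% of all genes.

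The members ranged from 59 residues (COX9) to 649 residues (GUT2), and shorter ones stood higher in every strain but D1/8. Across the tested members on nonduplicated chromosomes, Spearman's rho between residues and FP change was -0.68 in D1/2/8/11, -0.67 in D13 (KLY195) (-0.57 in its replicate 2 alone), -0.58 in D13, -0.59 in D1/2/8, 0.31 in D1/8, -0.45 in D2 and -0.41 in D1/2, as a description over genes that share their libraries. The 13 members of up to 150 residues had a median FP change of 0.60 in D1/2/8/11, and the 5 of over 300 residues of -1.01. In D1/2/8/11 other genes ran in the same direction, where those of up to 150 residues whose product has no predicted hydrophobic segment had a median of 0.39, and those of over 600 residues of -0.07. At 301 to 600 residues without a segment, other genes had a median of 0.13 and the 3 members of -1.13. Members of that class thus stood far below other genes of like length. In D2 and D1/2 such other genes ran the opposite way, with medians of -0.18 and -0.18 at up to 150 residues and 0.08 and 0.13 at over 600 residues. In D1/2/8/11 other genes with such a segment had medians of -0.08 at up to 150 residues and -1.13 at over 300 and up to 600 residues. Of the 9 members with a segment, the 5 of up to 150 residues had a median of 0.90 in D1/2/8/11, above the 0.58 of the 8 short members without one. The part of length in the members' FP changes was not tested.

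Other genes of mitochondrial respiration were taken from lists by function. Of the citric acid cycle enzymes on nonduplicated chromosomes, none rose and 6 of 10 fell in FP in D1/2/8/11, none rose and 4 of 11 fell in D13 (KLY195), and none of 11 passed in D1/8, where 14.6%, 6.53% and 0.381% of all genes rose and 21.8%, 18.2% and 0.317% fell in these strains. Without replicate 1 of D13 (KLY195) 1 of the 11 rose and 6 fell in that strain. ACO1, aconitase, changed by -1.80 in D1/2/8/11 and -2.41 in D13 (KLY195), and KGD1, of the 2-oxoglutarate dehydrogenase, by -1.49 and -0.93. In mRNA, 9 of 11 of these enzymes rose in D1/8, while 1 rose and 9 of 10 fell in D1/2/8/11, and 1 rose and 7 of 11 fell in D13 (KLY195), beside 21.5% of all genes that rose in D1/8 and 34.1% and 35.4% that fell in the other strains. INH1, the inhibitor that binds the ATP synthase when it would run backwards, had 65.8 and 79.7 RPKM of FP in D1/2/8/11, 127.8 and 124 RPKM in D13 (KLY195) and 40.2 and 38.2 RPKM in D1/8, against 40.3 RPKM in WT. It rose by 0.84 and 1.63 in the first pair of strains. CYC7, the minor cytochrome c, rose by 2.14 in D13 (KLY195). Other subunits and carriers of the same list went both ways. DLD1 FP was -1.91 in D1/2/8/11 (adjusted p = 0.0011), -1.65 in D13 (KLY195) (adjusted p = 0.0023) and 1.31 in D1/8 (adjusted p = 0.032). NDI1 FP was -0.84 in D1/2/8/11 (adjusted p = 0.027). COR1 and COX6, in 2 copies in D1/2/8/11, rose there. COX6 also rose in D13 (KLY195), as did CYB2, in 2 copies in that strain. Of the assembly and expression factors, 2 of 38 rose and 9 fell in D1/2/8/11, and 8 of 41 rose and 8 fell in D13 (KLY195), of which the shares that fell are close to those of all genes given above. Without replicate 1 of D13 (KLY195) 12 rose and 10 fell there.

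HAP4, the regulatory subunit of the CCAAT-binding complex, lies on chromosome XI. Its FP was 37.0 and 31.7 RPKM in D1/2/8/11, with 2 copies, 23.0 and 42.2 RPKM in D13 (KLY195), 24.8 RPKM in D1/2/8, 19.6 RPKM in D13 and 15.2 and 13.7 RPKM in D1/8, against 9.71 RPKM in WT. All aneuploid libraries of run 2 were above WT, and the lowest of them were those of D1/8. HAP4 FP rose by 1.76 in D1/2/8/11 (adjusted p = 0.0079) and 1.63 in D13 (KLY195) (adjusted p = 0.014), and HAP4 mRNA by 2.29, 1.98 and, in D1/8, 1.09. Without replicate 1 of D13 (KLY195) HAP4 FP rose by 2.06 there (adjusted p = 0.00052). Of its partners, HAP5 rose in FP in both strains (0.95, adjusted p = 0.0026, and 0.79, adjusted p = 0.0065), and HAP3, on chromosome II, in D1/2/8/11 (1.11, adjusted p = 0.0011), where that chromosome is in 2 copies. HAP5 FP in WT was 28.42 RPKM in run 1 and 15.34 RPKM in run 2. It was 28.7 and 31.53 RPKM in D1/2/8/11 and 27.18 and 26.67 RPKM in D13 (KLY195), so the HAP5 rises rest on the WT of run 2. HAP3 FP in WT was 66.28 and 37.74 RPKM in the same order, with 82.9 and 82.05 RPKM in D1/2/8/11. HAP4 mRNA in WT was 32.91 and 18.86 RPKM, with 39.15 and 42.16 RPKM in D1/8. HAP3 mRNA rose in D1/2/8/11 (0.75, adjusted p = 6.3e-06) and fell in D13 (KLY195) (-0.24, adjusted p = 0.027) and D13 (-0.43, adjusted p = 0.0027). HAP2 passed in FP in none of the 5 strains against WT, and its mRNA rose in all 5 by 0.26 to 0.40. HAP1 mRNA fell in D1/2/8/11 (-0.83, adjusted p = 2e-06) and D13 (KLY195) (-1.06, adjusted p = 2.3e-07), with FP changes of -0.21 (adjusted p = 0.21) and -0.27 (adjusted p = 0.16). In run 1, HAP4 FP was 5.13 RPKM in D2 and 4.23 RPKM in D1/2, against 8.19 RPKM in WT. Whether the levels of these factors had a part in the members' changes was not tested.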

How the data were processed

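Footprint and mRNA libraries came from 12 cultures. Per the labels the authors lysed cells treated with cycloheximide. Per the study's methods they prepared libraries with a ribosome profiling kit, trimmed adapters (Cutadapt), mapped reads without mismatches to SacCer3 mRNAs (Bowtie) and kept those inside coding sequences. The deposited unit is RPKM, reads scaled to coding length and library size, and the authors scaled aneuploid libraries so that nonduplicated genes had a median ratio of 1 to WT. A blank in the WT of run 2 marks fewer than 4 reads and was taken as 0. Spliced genes are mostly listed at 0, which removed some subunits. Versions are not given in the sources used here. Matching reads to whole mRNAs without mismatches can lower genes with close paralogs or with strain differences.

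Values were taken as log2(RPKM + 0.5), so the changes of low genes are understated. Each library was shifted so that its median change from the WT of its run was 0 over the genes of never-duplicated chromosomes that had, on average, 1 RPKM or more. Tests used limma 3.58.1 (R 4.3.3, eBayes with trend) on the 9 cultures of run 2, with 1 group per strain, Benjamini-Hochberg over all genes (5036 in FP, 5470 in mRNA, 5035 in density) and adjusted p under 0.05. Only 3 strains with 2 cultures inform the spread. Run 1 was described by a 1.5-fold threshold. Tables used Python 3.11.15, pandas 2.3.3 and numpy 2.4.6. Members named with values in every library were those on duplicated chromosomes and up to 10 per measure that passed with at least 1.5-fold in a strain with 2 cultures. The script was tested on simulated data. Depth was recovered from the steps of low values, of which between 85.0% and 98.8% were within 0.05 of a whole read. A hydrophobic segment is a mean hydropathy of at least 1.6 over 19 residues, or of at least 2 over 11 within the first 35 residues. The R64 reference, the assembly of SacCer3, gave coordinates, and the chromosome matched for all 31 members. The members and lists were chosen with earlier results of these data known. Alternatives covered the pseudocount, filter, shift, trend, WT used, replicate block, threshold and each culture left out.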

Additional observations from a re-analysis of the deposited data

Results flagged for a closer look

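The change from WT differed between strains for many members, by the tests of the strain contrasts, with members on duplicated chromosomes counted. Only the FP counts against D1/8 were well above the shares of all genes. The FP count between D13 (KLY195) and D1/2/8/11 and the density counts were near or below those shares. In FP, 21 members differed between D1/2/8/11 and D1/8, 23 between D13 (KLY195) and D1/8, and 8 between D13 (KLY195) and D1/2/8/11, of 30 tested, beside 46.6%, 42.7% and 34.3% of all genes. In mRNA these numbers were 27, 24 and 18 of 31, beside 76.4%, 77.3% and 62.3% of all genes, so the mRNA shares were near those of all genes. In density they were 5 and 10 of 30 for the contrasts with D1/8, beside 29.8% and 32.5%, and no density call held in each fit that left out 1 culture. The FP contrast of D13 (KLY195) with D1/8 gave 22 without replicate 1 of D13 (KLY195) and 8 without replicate 1 of D1/8.

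Subunits encoded by mitochondrial DNA, which belong to no comparison above, had mRNA values in some aneuploid libraries above both WT libraries. OLI1, the proteolipid ring subunit of the ATP synthase, reached 2506 RPKM in D13, against 716 to 1477 RPKM in WT, and was above both WT libraries in 8 cultures. COX2 reached 728.6 RPKM in D13, against 238 to 467 RPKM in WT, and COX3 reached 460.9 RPKM in D13, against 274.7 to 379.7 RPKM in WT. COX2 was above both WT libraries in 3 cultures and COX3 in 1. ATP6 reached 583 RPKM in D1/2/8/11 replicate 2, against 149 to 349.7 RPKM in WT, and ATP8 reached 384 RPKM in D1/2/8, against 113 to 225 RPKM in WT. ATP6 was above both WT libraries in 4 cultures and ATP8 in 3. In both D1/8 cultures all 5 of these subunits lay below both WT libraries, with OLI1 at 687 and 667 RPKM, COX2 at 162 and 171 RPKM, COX3 at 158 and 163 RPKM, ATP6 at 93.0 and 111 RPKM and ATP8 at 60.9 and 57.0 RPKM. No test was run on these values, and COX1 and COB are listed at 0.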

How the results depend on the processing

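Counts of members called stayed within 1.5 times the main value in 296 of the recomputed cases and moved further in 59, and of the values of single named members 723 kept their direction and call, 96 lost the call and 1 reversed. The reversed value was SDH4 mRNA in D1/8, at 0.0 with the WT of both runs as 1 group. Counts in this section come without shares of all genes, so they show how far a count moved and are not results about the members. With that WT group the mRNA counts were 17 (D1/2/8/11 minus D1/8) and 8 (D13 (KLY195) minus D1/2/8/11), and the density counts 3 (D13 (KLY195)), 1 (D1/2/8/11 minus D1/8) and 4 (D13 (KLY195) minus D1/8). Density gave 1 in D1/2/8/11 with no filter. Without the culture as a unit it gave 8 and 11 against WT (D1/2/8/11, D13 (KLY195)), and 14 and 16 against D1/8. Centred on each library's own median, an alternative added after seeing the data, density gave 7 in D1/2/8/11 and 16 and 18 for these strains against D1/8. The design's wording can be read as that centring. Own FP medians lay -0.182 to -0.255 from WT in all strains of run 2 but D1/8, so it raises the FP and density of every gene in those strains. Aligned on genes without a hydrophobic segment, also added later, the FP count in D1/2/8/11 was 12, and 11 members were higher and 5 lower than in D1/8 (17 and 4 with the shift used in the report, duplicated chromosomes counted).

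Leaving out 1 culture gave FP counts of 6 to 24 (D1/2/8/11), 0 to 5 (D1/8), 12 to 24 (D13 (KLY195)), 7 to 24 (D1/2/8/11 minus D1/8), 8 to 24 (D13 (KLY195) minus D1/8) and 5 to 14 (D13 (KLY195) minus D1/2/8/11). The lowest came without D1/2/8/11 replicate 1 (6 and 5) or a D1/8 culture (12, 7 and 8), and the counts for D1/8 reached 5 without either D13 (KLY195) culture. D1/2/8/11 gave 11 without its replicate 2 and 10 without either D1/8 culture. Density counts were 0 to 10 (D1/2/8/11), 0 to 0 (D1/8), 0 to 10 (D13 (KLY195)), 0 to 13 (D1/2/8/11 minus D1/8), 0 to 13 (D13 (KLY195) minus D1/8) and 0 to 1 (D13 (KLY195) minus D1/2/8/11), with 0 or 1 in each without a D1/8 culture. The mRNA counts were 20 to 20, 17 to 19, 22 to 23, 25 to 27, 23 to 25 and 15 to 18 in the same order.

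At a 30% threshold the description gave FP counts of 17 in D1/2 (2 up, 15 down), 20 in D1/2/8 (16 up, 4 down), 9 in D1/8 (8 up, 1 down) and 26 in D13 (22 up, 4 down). Its mRNA counts were 12 in D2 (4 up, 8 down), 19 in D1/2/8 (15 up, 4 down), 18 in D1/2/8/11 (14 up, 4 down), 10 in D1/8 (all up) and 18 in D13 (KLY195) (14 up, 4 down). With the mean of both WT libraries the mRNA count in D1/8 was 8. Replicate numbers did not pair the cultures (correlations of -0.07 to 0.12 in FP and -0.03 to 0.21 in mRNA), and the replicate block gave counts of 21, 21 and 8 in FP, 27, 25 and 20 in mRNA and 6, 9 and 0 in density for the contrasts between strains. The cause of these shifts was not tested. FP differences are limited by the spread between replicate cultures, whose chi-square per degree of freedom over all genes was 8.3 to 157.7 in FP where counting noise alone gives about 1, rather than by depth.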
